A study of Bos taurus with 6 samples.

Results

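The myogenic and satellite cell factors are the genes by which skeletal muscle is specified, repaired and kept in its differentiated state. The 9 genes named for this group were PAX7, PAX3, MYF5, MYF6, MYOD1, MYOG, MEF2A, MEF2C and DES, and they were found by their symbols in the mRNA count table of intramuscular fat (IMF) of Qinchuan cattle. Of these 9 genes, 8 were present in the table of 25444 genes, and MYOG was not analysed here. A read was counted for 6 of them, among 17752 genes with a count in either library, and PAX7 and PAX3 were at 0 in both libraries.

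The study compared IMF of castrated males (CM, steers) with that of intact males (IM, bulls) to learn how castration changes the tissue. Animals of both groups were Qinchuan males of 24 months, sired by 1 bull according to the methods, weaned at 3 months and raised on the same diet, and the steers were castrated surgically at 6 months. The fat was dissected from the sternomandibularis, a muscle of the neck, and each group was sequenced as 1 pooled mRNA library on the Ion Proton and as 2 small RNA libraries on the Illumina HiSeq. The design text gives 6 animals per mRNA pool and 3 per small RNA pool, while the labels of the samples give 3 and 1.

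PAX3 and PAX7 are paired-box transcription factors of muscle progenitors, and PAX7 marks the satellite cells, the resident stem cells that lie beneath the basal lamina of the fibre. The 4 myogenic basic helix-loop-helix (bHLH) factors act after them: MYF5 and MYOD1 commit cells to the muscle lineage, MYOG drives their differentiation, and MYF6 (MRF4) stays on in the mature fibre. The MEF2 factors bind muscle promoters together with the bHLH factors and are also active in vessels and in immune cells. Desmin (DES) is the intermediate filament that ties the Z discs of skeletal and cardiac muscle to one another, and it is also present in smooth muscle. In fat, MYF5 also marks the precursors that are shared by skeletal muscle and brown adipocytes.

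The steer mRNA library held 12677375 counts and the bull library 9868415, and the size factors, taken as the median of ratios over genes, were 1.04 and 0.959. A limit of 3 counts was set for low counts, which is 0.237 CPM (counts scaled to a library total of 1000000) in steers and 0.304 CPM in bulls. For a count of 0 the upper end of the 95% counting interval was 0.291 CPM in steers and 0.374 CPM in bulls. With 1 pooled library per group there is no test of the groups, so the ratios below carry 95% Clopper-Pearson intervals that cover counting error only, and reads are not independent molecules. A gene was called past 2-fold when its log2 ratio (steers over bulls) was beyond 1 or -1 with an interval on 1 side of 0. Over all genes the median log2 ratio was 0.01, with quartiles of -0.51 and 0.45. Both libraries held the fat transcripts that the tissue label calls for, at sums of 37899 and 36281 counts over 9 adipocyte genes, and both also held muscle: 23 genes of the mature muscle fibre summed to 45207 counts in steers (0.357% of the library) and 67248 in bulls (0.681%).

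Between the 6 factors with a count, the libraries differed most for the earliest bHLH gene and for the filament. MYF5 was higher in steers and DES was higher in bulls, MEF2A was moderately higher in bulls, and the intervals of the MYF6, MYOD1 and MEF2C ratios included 0. MYF5 was the 1 member past 2-fold higher in steers, where 5.22% of all genes with a count were, and DES the 1 member past 2-fold lower, where 8.86% were. The median log2 ratio of the 6 members was -0.44, and 5 of the 6 ratios were below 0.

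**Figure D1:**
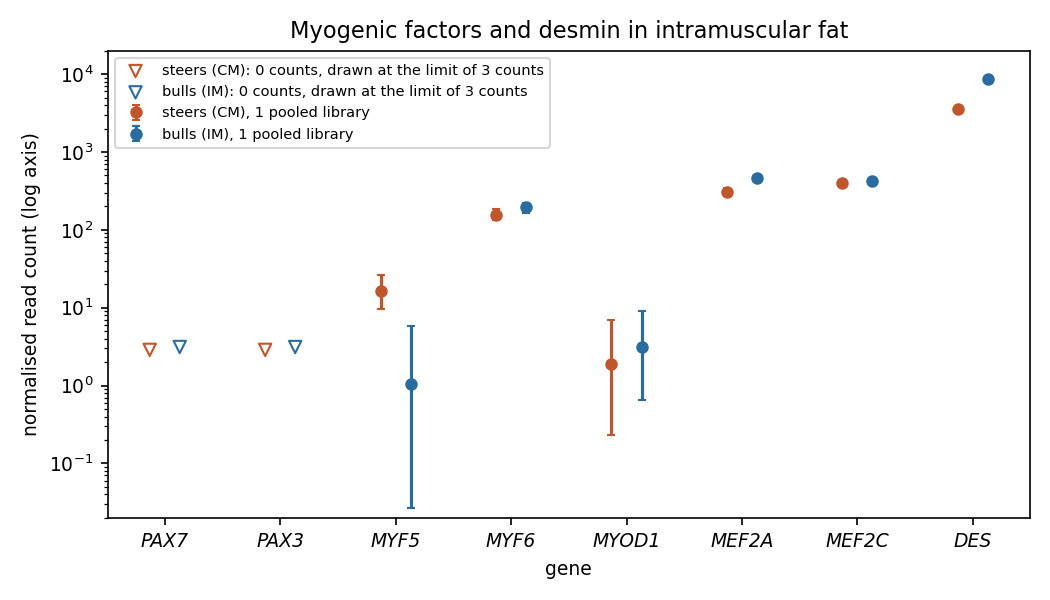
Normalised read counts (log axis) of the 8 members with a place in the table, for the pooled steer library and the pooled bull library; bars are 95% counting intervals, and open triangles mark genes with 0 counts, drawn at the limit of 3 counts. MYF5 lies at 16.3 in steers and 1.04 in bulls, and DES at 3567 and 8562, while the intervals of both libraries overlap for MYF6, MYOD1 and MEF2C.

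PAX7, the satellite cell factor, had 0 counts in steers and 0 in bulls. PAX3, its paralogue in the embryonic muscle progenitor, likewise had 0 and 0. Neither gene had a read at this depth, which differs from a statement that satellite cells were absent. The symbol PAX7 was also missing from the reference gene list used here for names, which holds PAX3. Whether the zero of PAX7 comes from its annotation or from its level was not tested. Such zeros were common, as 7692 genes (30.2%) had no count in either library. Of the 9 PAX genes in the table, 5 were at 0 in both libraries, namely PAX2, PAX3, PAX4, PAX6 and PAX7. The other PAX genes were at low counts, with 11 and 15 for PAX1 (steers, bulls), 0 and 1 for PAX5, 20 and 51 for PAX8, and 1 and 0 for PAX9.

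MYF5, the first of the bHLH factors to be expressed in the muscle lineage, had 17 counts in steers and 1 in bulls. Its normalised count was 16.3 [9.49 to 26.1] in steers and 1.04 [0.0264 to 5.81] in bulls, and these intervals do not overlap. The log2 ratio was 3.97, with an interval of 1.29 to 9.35, which is a 15.6-fold difference with an interval of 2.45- to 653-fold. The single read in bulls leaves the upper end of this range nearly free, and with 5 counts added to each library the log2 ratio was 1.82.

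MYOD1, which commits cells to the muscle fate alongside MYF5, had 2 counts in steers and 3 in bulls, both at or below the limit of 3 counts, so no fold is given. The interval of its log2 ratio ran from -4.29 to 2.42, far to either side of 0. The log2 ratio of MYF5 lay above that of MYOD1 by 4.67, with an interval of 0.12 to 10.46 that barely clears 0. With MYOD1 at 2 and 3 counts and MYF5 at 1 in bulls, a difference between their ratios is not taken as shown.

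MYF6, the bHLH factor of differentiated fibres, is the one of the 3 in the table with counts well above the limit in both libraries. It had 164 counts in steers and 186 in bulls, or normalised counts of 157 [134 to 183] and 194 [167 to 224]. The bull value was the higher, but the intervals overlap, and the log2 ratio of -0.30 had an interval of -0.62 to 0.01. On the ARS-UCD2.0 assembly MYF6 and MYF5 are neighbours on 1 chromosome, with 0 genes between them and no overlap. The ratios of these neighbours differed by 4.27 on the log2 scale, with an interval of 1.56 to 9.66.

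MEF2A, a MADS-box factor that is expressed widely beyond muscle, had 322 counts in steers and 448 in bulls. Its normalised counts were 309 [276 to 344] and 467 [425 to 513], and the intervals do not overlap. The log2 ratio was -0.60, with an interval of -0.81 to -0.39, so the bull library was higher by 1.51-fold, short of 2-fold. MEF2C, a paralogue needed for heart and muscle development and also expressed in endothelium and B cells, had 417 counts in steers and 407 in bulls. Its normalised counts were 399.7 [362 to 440] and 425 [384 to 468], which overlap widely, at a log2 ratio of -0.09 [-0.29 to 0.11]. The pair of MEF2 genes thus differed from one another: their log2 ratios (MEF2A minus MEF2C) were apart by -0.51, with an interval of -0.80 to -0.22.

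DES was counted 3721 times in the steer library and 8207 times in the bull library, so its counting error was the smallest of the group. The normalised counts were 3567 [3453 to 3683] in steers and 8562 [8378 to 8749] in bulls, far apart on this scale. The log2 ratio was -1.26 [-1.32 to -1.21], and the bull library was higher by 2.40-fold [2.31 to 2.50].

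Differences between the ratios of 2 members do not depend on how the libraries are scaled. Of the 15 pairs among the 6 members, 9 had an interval that excluded 0. The share over pairs of other genes was not computed, so this count is not read as a result about the members. MYF5 stood above each of the other 5, from 4.05 above MEF2C to 5.23 above DES [2.55 to 10.61]. All 5 of these differences rest on the same count of 1 for MYF5 in bulls, and the difference from MYOD1 is not taken as shown. DES stood below MYF6 by 0.96 [0.64 to 1.28], below MEF2A by 0.66 [0.45 to 0.88] and below MEF2C by 1.18 [0.97 to 1.38] on the log2 scale. No difference could be shown between MYF6 and MEF2A (0.29 [-0.08 to 0.67]) or between MYF6 and MEF2C (-0.22 [-0.59 to 0.16]). The same held between MYOD1 and each of MYF6, MEF2A, MEF2C and DES. These intervals also cover counting error only, within 1 pair of pools.

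The 23 genes of the mature muscle fibre, which code for the proteins of the sarcomere and its energy supply, put these values beside the muscle content of each library. Of these, 7 were past 2-fold lower in steers and 1 was higher, with a median log2 ratio of -0.65. The lower ones with the largest ratios were the slow fibre genes MYL3 (66 and 470 counts in steers and bulls, log2 ratio -2.95), MYL2 (1060 and 4711, -2.27), MYH7 (675 and 2906, -2.23) and TNNT1 (485 and 1801, -2.01). ACTA1, the skeletal actin and the most counted gene of the list, was at 13852 and 19910 (-0.65). The 1 gene past 2-fold higher, named after its value had been seen, was MYH1, a fast myosin heavy chain, at 247 and 102 counts (1.15). Slow fibre genes thus made up the lower end of the list. Above 0 were 7 of the 23, among them the fast fibre genes TNNC2 (1583 and 729, 1.00) and ACTN3 (965 and 539, 0.72). The fast fibre gene MYL1 went the other way (624 and 954, -0.73). TNNC2, ACTN3 and MYL1 were named after their values had been seen. Since the summed fibre counts themselves had a log2 ratio of -0.70, any ratio between -0.70 and 0 given here turns positive when the libraries are scaled by that sum, which includes the list's own median.

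DES ranked near the lower end of that list, with 6 of the 23 fibre genes below its ratio. MYF6, MEF2A and MEF2C lay inside the list's range, with 15, 12 and 16 fibre genes below them, and MYF5 lay above all 23. Whether muscle cells were fewer in the dissected steer fat, differed in fibre type or held less of these RNAs cannot be told apart in bulk tissue. How much muscle came along in the dissection of each pool is not given in the sources used here. The part of muscle content in the members' ratios was not tested.

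**Figure D2:**
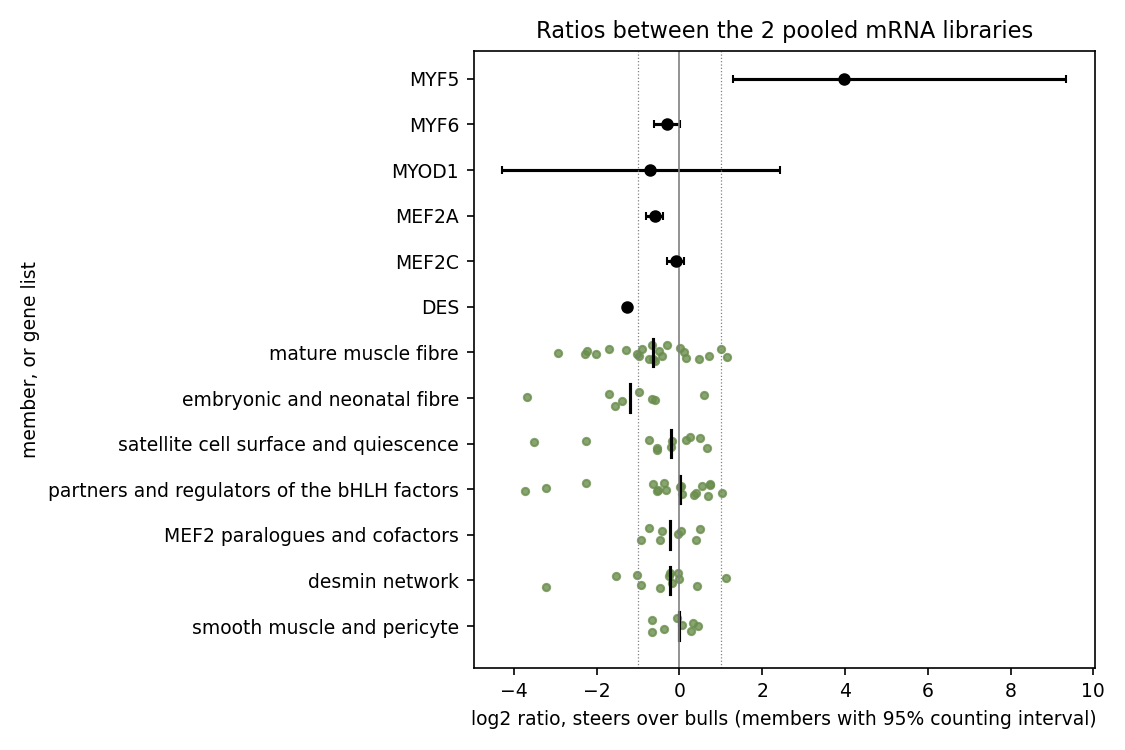
Log2 ratios (steers over bulls) of the 6 members with a count, with 95% counting intervals, above the genes of 7 lists, each a point with 0.5 counts added to each library; vertical bars are list medians, dotted lines mark 2-fold, and points are spread vertically for legibility. DES (-1.26) lies below the median of the mature muscle fibre list (-0.65), MYF6, MEF2A and MEF2C lie above it, and MYF5 (3.97) lies above every gene of the lists.

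Set against the summed counts of the mature fibre list, the order of the libraries changed for 3 members. Per 1000 fibre counts, MYF6 was at 3.63 in steers and 2.77 in bulls, and the log2 difference of 0.39 [0.08 to 0.70] turned from below to above 0. MEF2C was at 9.22 and 6.05 per 1000 fibre counts, which is higher in steers by 0.61 [0.41 to 0.81]. MEF2A was at 7.12 and 6.66, a difference of 0.10 [-0.12 to 0.31] that includes 0. DES remained lower in steers, at 82.3 and 122 per 1000 fibre counts (-0.57 [-0.63 to -0.51]), though it was then no longer past 2-fold. MYF5 stayed higher in steers on this scale, by 4.66 [1.99 to 10.05]. Relative to the fibre transcripts, MYF5, MYF6 and MEF2C were thus higher in steers while desmin was lower. The median log2 ratio of all genes was 0.70 on this scale, above the values of MYF6, MEF2A and MEF2C. Their change of sign is therefore not read as a result about these members.

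**Figure D3:**
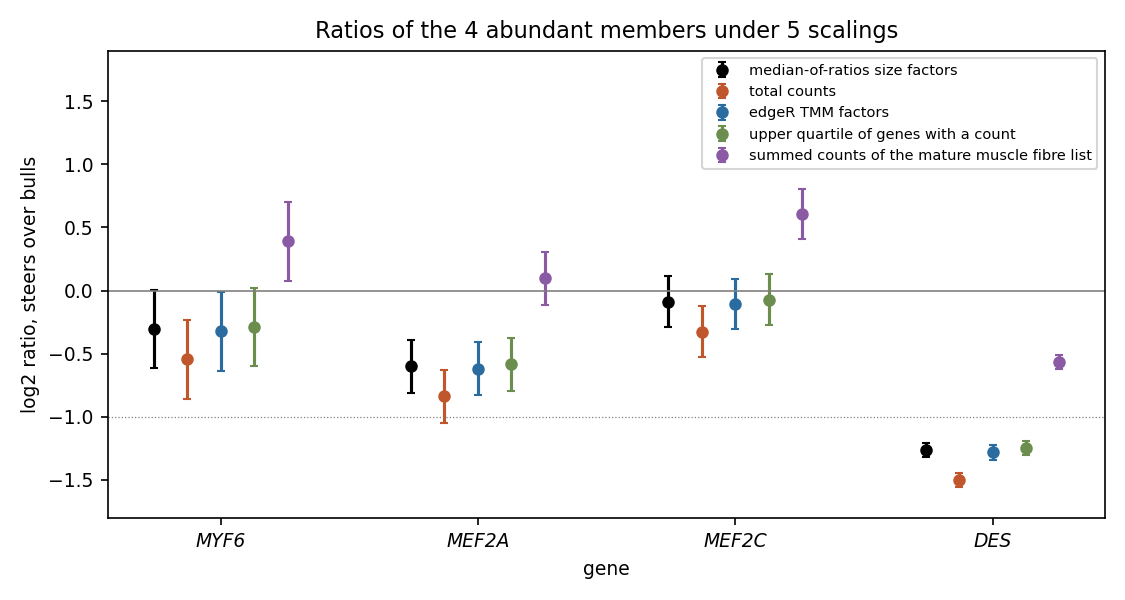
Log2 ratios (steers over bulls) of MYF6, MEF2A, MEF2C and DES under 5 ways of scaling the libraries, with 95% counting intervals; the dotted line marks 2-fold lower. DES stays below 0 under each of the 5, from -1.50 with total counts to -0.57 with the summed fibre counts, while MYF6, MEF2A and MEF2C lie above 0 with the summed fibre counts alone. With the summed fibre counts the median of all genes is 0.70.

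Desmin is also a filament of smooth muscle, so its ratio was set beside the 8 smooth muscle and pericyte genes. None of the 8 was past 2-fold, their median log2 ratio was -0.00, and they summed to 17840 counts in steers and 17126 in bulls. PDGFRB, a pericyte receptor and the most counted of them, was at 6596 and 5835 (0.05). The larger ratios were split in direction, with CNN1 (331 and 481, -0.66), ACTA2 (2564 and 3716, -0.66) and MYH11 (2365 and 2806, -0.37) below 0 and TAGLN (4102 and 2760, 0.45) above. Per smooth muscle count, the log2 difference of DES was -1.20 [-1.26 to -1.14], beside -1.26 with the size factors. The smooth muscle sum itself had a log2 ratio of -0.06, so these values had to lie close. Which cells the DES reads came from was not tested.

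Of the 12 genes of the desmin network, that is, its partner filaments, its chaperones and the proteins of the Z disc and costamere, 2 were past 2-fold lower and 1 was higher, with a median of -0.23. CRYAB, the small heat shock protein that acts as a chaperone of desmin, was at 724 counts in steers and 1938 in bulls (-1.54). MYOT, the Z disc protein myotilin, was at 453 and 841 (-1.01), and DTNA, a dystrobrevin of the membrane complex, was at 62 and 109 (-0.94). SYNC (syncoilin), a filament partner of desmin, was the 1 higher gene, at 698 and 292 (1.14). VIM, the vimentin of mesenchymal cells and the most counted gene of the list, was at 105796 and 98846 (-0.02). Others of the list, named after their values had been seen, went different ways. BAG3, a cochaperone, was at 1294 and 885 (0.43), and the filament genes SYNM and NES were at 913 and 977 (-0.22) and 221 and 203 (0.00). Neither the chaperones nor the partner filaments thus shared 1 direction.

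Genes of fibres in development or repair were at few counts. Of 8 in the table, 3 were past 2-fold lower in steers and none higher, at a median log2 ratio of -1.19 and summed counts of 418 and 624. ACTC1, the cardiac actin of developing fibres, was at 24 and 288 counts (-3.71). CHRNA1, a subunit of the acetylcholine receptor, was at 16 and 44 (-1.58) and MYH3, the embryonic myosin, at 20 and 49 (-1.41). MYH8, the neonatal myosin, was at 8 and 15 counts, with an interval that includes 0 (-1.03 [-2.47 to 0.30]). NCAM1, an adhesion molecule that nerve also expresses, had the most counts, at 338 and 206 (0.59). Neither the embryonic nor the neonatal myosin was higher in the steer library, where MYF5 was.

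Of 12 genes known from the surface or the quiescent state of satellite cells, 1 was past 2-fold lower in steers and none higher, at a median of -0.21 over the 11 with a count. CALCR, the calcitonin receptor of quiescent satellite cells, was at 0 counts in both libraries, as were PAX7 and PAX3. CDH15 (M-cadherin), which is close to specific for muscle cells, was at 14 and 19 counts (-0.56 [-1.67 to 0.51]). SPRY1, an inhibitor of growth factor signaling, was at 539 and 825 (-0.74), HEYL, a Notch target, at 447 and 260 (0.66), and SDC4, a widely expressed proteoglycan, at 1442 and 1111 (0.25). The 1 gene past 2-fold was CXCR4, a chemokine receptor that leukocytes also carry, at 186 and 812 (-2.25). Leukocyte markers were lower in steers as well. Of 8 myeloid genes 6 were past 2-fold lower in steers (median -1.70, summed counts 20330 and 42292), as were 7 of 8 T lymphocyte genes (-3.16, 149 and 836) and 2 of 7 B lymphocyte genes (26 and 97, with MS4A1 and CD79B at 0 in both; median -1.63, or -0.94 with genes at 0 in 1 library set to their bound). Their part in the ratios of CXCR4, MEF2A and MEF2C was not tested.

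Among 18 partners and regulators of the bHLH factors, 2 were past 2-fold lower in steers and none higher, with a median log2 ratio of 0.03. Of the ID inhibitors, which keep E proteins from pairing with the myogenic factors, ID1 was at 176 and 97 counts (0.74) and ID3 at 1173 and 667 (0.69), whereas ID2, named after its value had been seen, was at 595 and 709 (-0.38 [-0.53 to -0.22]). TWIST1, a bHLH repressor of the muscle program, was at 582 and 318 (0.75). TCF4, an E protein partner, was at 292 and 415 (-0.63). The E proteins TCF12 and TCF3, named after their values had been seen, were at 1131 and 1292 (-0.31) and at 373 and 233 (0.56). CARM1, a coactivator of MEF2 and the bHLH factors, was at 1367 and 1206 (0.06). These ratios were all short of 2-fold. The 2 lower genes, named after their values had been seen, were MSTN (myostatin), the secreted inhibitor of muscle growth, at 1 and 18 counts (-4.29 [-9.67 to -1.63]), and EYA4, at 3 and 15 (-2.44 [-4.87 to -0.62]). MSTN was thus at a single count in the library where MYF5 had 17, and at 18 where MYF5 had 1, and both ratios rest on few reads.

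The MEF2 paralogues and cofactors were closer to even. None of 8 in the table was past 2-fold, and their median was -0.23. MEF2B, the paralogue best known from B cells, was at 14 counts in steers and 25 in bulls (-0.96 [-2.02 to 0.04]). Of the class IIa deacetylases, which bind and repress the MEF2 factors, HDAC9 was at 82 and 125 (-0.73) and HDAC5 at 1484 and 1829 (-0.42). The other members of that class in the list, named after their values had been seen, were near even, with HDAC4 at 145 and 130 (0.04) and HDAC7 at 1432 and 1346 (-0.03). PPARGC1A, a coactivator of slow fibre genes, was at 35 and 45 (-0.48 [-1.17 to 0.18]), and TEAD4, a factor of muscle promoters, at 54 and 35 (0.50 [-0.14 to 1.16]).

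The other cell types of the tissue give the frame in which the members' values stand. The 9 adipocyte genes had a median log2 ratio of -0.02, with LPL higher (7811 and 2253, 1.67) and FABP4 lower (3951 and 7574, -1.06) in steers, and the 8 endothelial genes a median of -0.24 with none past 2-fold. The 8 fibroblast and matrix genes had a median of 0.94 with 3 past 2-fold higher, and they took 11.5% of the steer library and 6.94% of the bull library.

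Muscle also has its own microRNAs (miRNAs), and the small RNA libraries, 2 per group, allowed a test. miR-1 and miR-206 repress PAX7 and PAX3 as muscle cells differentiate, the miR-133 family acts on proliferation and on SRF, and miR-208b and miR-499 are made from introns of slow myosin genes (MYH7 and MYH7B). The mature sequences below, from the study's list of known bovine miRNAs, show why these count as families; capitals mark the seed, bases 2 to 8 from the 5′ end, which pairs with targets.
miR-1: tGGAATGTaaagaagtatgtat
miR-206: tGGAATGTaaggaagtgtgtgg
miR-133a: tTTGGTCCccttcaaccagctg
miR-133b: tTTGGTCCccttcaaccagcta
miR-208b: aTAAGACGaacaaaaggtttgt
miR-208a: aTAAGACGagcaaaaagcttgt
miR-499: tTAAGACTtgcagtgatgttt
miR-486: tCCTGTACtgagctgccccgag
Within each family the seed is the same. miR-1 and miR-206 differ at 4 positions, miR-208a and miR-208b at 3, and miR-133a and miR-133b at 1, so that reads of the miR-133 pair may be shared between them, and how multiple matches were counted is not given in the sources used here.

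Of the 8 muscle miRNAs, 7 passed the filter on low counts. With edgeR's quasi-likelihood test 2 of them were called lower in steers and 1 higher (adjusted p under 0.05 and log2 fold change beyond 1 or -1), where 7.08% of 1073 tested sequences were called lower and 7.08% higher. Log2 fold changes were below 0 for 6 of the 7, with a median of -1.01. Groups did not overlap for 6 of the 7, where 58.2% of the 1073 sequences had groups that did not, so this count is not read as a result about the muscle miRNAs. The labels do not say how the pools were drawn, so the p-values measure only the spread between these libraries, which may be technical.

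miR-499 was counted 157 and 173 times in the steer libraries and 574 and 570 times in the bull libraries. Both bull libraries were well above both steer libraries, at 68.5 ± 10.5 CPM against 20.2 ± 0.0385 CPM (SD, n = 2 each). In edgeR the log2 fold change was -1.76 (SE 0.47, adjusted p = 0.00432).

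miR-1, which shares its seed with miR-206, was counted 158 and 160 times in the steer libraries, against 432 and 441 times in the bull libraries. The groups were again apart, at 19.5 ± 1.13 and 52.2 ± 6.98 CPM (SD, n = 2 each). The log2 fold change was -1.42 (SE 0.48, edgeR adjusted p = 0.0279).

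miR-486, which muscle and red cell precursors express, went the other way, at 26327 and 62923 counts for the steer libraries against 16461 and 15905 for the bull libraries. Both steer libraries were higher but far apart from each other, at 5363 ± 2807 CPM against 1941 ± 334 CPM (SD, n = 2 each). The log2 fold change was 1.47 (SE 0.48, edgeR adjusted p = 0.0233), and it was 0.84 and not called without the second steer library.

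**Figure D4:**
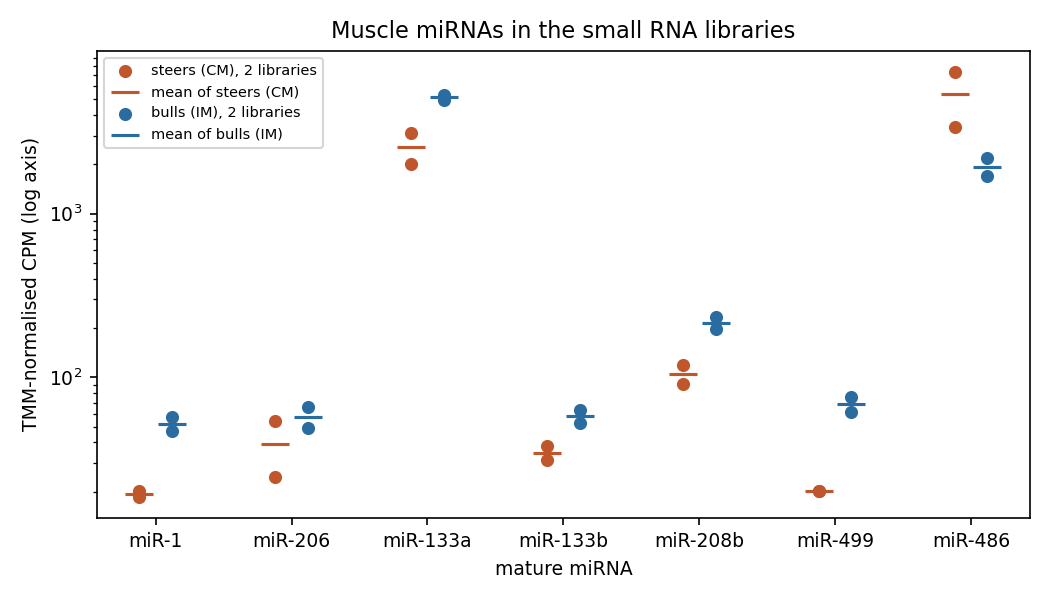
TMM-normalised CPM (log axis) of the 7 muscle miRNAs tested, with a point for each small RNA library, 2 of steers and 2 of bulls, and a bar for each mean. The bull libraries lie above the steer libraries for miR-1, miR-133a, miR-133b, miR-208b and miR-499, the groups overlap for miR-206, and miR-486 is higher in steers.

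The other muscle miRNAs were not called. miR-133a was at 15741 and 26774 counts in the steer libraries and 40409 and 46507 in the bull libraries (-1.01, edgeR adjusted p = 0.145). miR-208b had 713 and 1021 against 1776 and 1843 (-1.04, edgeR adjusted p = 0.136), and miR-133b 242 and 327 against 477 and 491 (-0.74, edgeR adjusted p = 0.283). All 3 were lower in both steer libraries than in either bull library, and the values of miR-133a and miR-208b were near 2-fold.

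miR-206, the member of this set made mostly in skeletal muscle and raised in regeneration, was counted 193 and 462 times in the steer libraries, against 495 and 457 times in the bull libraries. Its groups overlapped in CPM (24.8 and 53.9 against 65.5 and 49.0), and the log2 fold change was -0.54 (edgeR adjusted p = 0.449). miR-208a, the sister of miR-208b from the MYH6 gene of heart, was at 0, 0, 4 and 2 counts and was not tested.

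The calls, though not the directions, depended on which libraries were fitted. With a library left out, the lone library of that group was assumed to vary like the pair of the other. Without the first steer library or without the second, edgeR called 0 of the 7 muscle miRNAs. At an unadjusted p under 0.05 were 2 and 1 of them, beside 233 of 1252 and 117 of 1184 sequences tested, and DESeq2 on the 4 libraries called the same 3 as edgeR. The fold changes of miR-499 (-1.71 and -1.73) and miR-1 (-1.43 and -1.33) stayed close to those of the 4 libraries in these fits, while that of miR-486 was 1.97 and 0.84. Without the first bull library miR-499 and miR-486 were called, and without the second miR-1 and miR-499. Over these 4 fits the log2 fold change ran from -1.95 to -1.41 for miR-499, from -1.59 to -1.09 for miR-1 and from 0.84 to 1.97 for miR-486.

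A last set of 3 miRNAs is tied to the members in the muscle literature, since miR-27b acts on PAX3, miR-31 on MYF5 and miR-489 on satellite cell quiescence. miR-27b, an abundant miRNA, was at 451040 and 409220 counts (steer libraries) against 481994 and 397076 (bull libraries), with overlapping groups (-0.01, edgeR adjusted p = 0.994). miR-31 was at 110 and 93 against 128 and 105, also overlapping (-0.17, edgeR adjusted p = 0.861). miR-489 was at 1, 0, 1 and 0 counts and was not tested. The relation of miR-31 to the MYF5 counts of 17 and 1 was not tested.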

How the data were processed

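IMF mRNA of 1 pooled library per group and small RNA of 2 libraries per group were analysed, grouped by the castrated or intact treatment in the labels. The authors trimmed and filtered the reads, aligned mRNA reads to the bovine genome with MapSplice and small RNA reads to miRBase and the bovine genome with BWA, and deposited both tables as raw counts per gene or mature sequence. The submitters' processing notes name a human build, GRCh37.p13, beside BWA, whereas the methods name a bovine one, so no coordinates are given. Which program counted the reads, and whether by strand, is not given in the sources used here.

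From the deposited counts, median-of-ratios size factors, log2 ratios and 95% Clopper-Pearson intervals were computed for mRNA (Python 3.11.15, scipy 1.17.1), with 0.5 counts added for list medians. The intervals cover counting error only. miRNA counts (totals of 6556511 to 10452582 per library) were tested with edgeR 4.0.16 (R 4.3.3; filterByExpr, TMM, quasi-likelihood, Benjamini-Hochberg over 1073 sequences of 8800), with DESeq2 1.42.0 as an alternative. The scripts were tested on simulated data. The lists were the mature muscle fibre, embryonic and neonatal fibre, satellite cell surface and quiescence, bHLH partner, MEF2 cofactor, desmin network, smooth muscle, adipocyte, endothelial, myeloid, T and B lymphocyte, and fibroblast lists. Named from each were up to 4 genes with the largest log2 ratio among those with 20 or more counts over both libraries, and the gene with the most counts; of the lists of other cell types, those that a statement needed. Of the names, 3 were matched through synonyms or gene numbers. The members and the lists were chosen with earlier results of these data known. List genes without an entry in the table were not analysed here. Mature sequences were taken from the study's supplementary list.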

Additional observations from a re-analysis of the deposited data

How the results depend on the processing

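For mRNA, MYF5 and DES were past 2-fold with total counts, TMM and upper quartile scaling, with a minimum of 10 counts and with no requirement on the interval. Scaled by the summed fibre counts or at a 4-fold threshold, 1 member was (MYF5). Total counts moved the median of all genes to -0.23 and the share of genes past 2-fold that were higher in steers from 37.1% to 22.5%, and the fibre sum moved them to 0.70 and 84.9%. The share of all genes past the threshold was 14.1%, and 27.4% with the fibre sum, 6.52% at 4-fold and 29.5% with no requirement on the interval. With total counts MEF2A was at -0.84, MEF2C at -0.33, DES at -1.50 and the fibre list median at -0.88. For the muscle miRNAs, edgeR called 3 of 7 with TMM, and DESeq2 with its own size factors called 3. With total counts in place of TMM edgeR called 0. At an unadjusted p under 0.05 in that edgeR fit were 5 of the 7, beside 298 of 1073 sequences tested, so the 5 are not read as a result about the muscle miRNAs. With upper quartile factors 2 were called (miR-1 lost), and with no filter on low counts 1. Each library was also left out in turn, as given above. Over the 9 alternatives miR-1 was called in 3, miR-486 in 4 and miR-499 in 6. The calls among all sequences were 152, and 1 with total counts, 70 without the filter, 125 with DESeq2 and 26 to 151 with a library left out. The cause was not tested. With a replicate block, 5 muscle miRNAs and 252 sequences were called, with miR-133a and miR-208b added. Nothing in the labels says that equal numbers share a pool. With only 2 pairs, whose deviations correlated at 0.304, the numbers were not taken to pair the libraries. With 1 pooled mRNA library per group, animal-to-animal variation could not be measured, and genes at a few counts, MYF5 and MYOD1 among them, are limited by depth.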
